A study of Caenorhabditis elegans with 2 samples.

Results

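The heterochronic genes lin-14, lin-28, lin-29, lin-41, lin-42, lin-46, hbl-1 and daf-12 were followed through a map of NHR-237 binding in first-stage (L1) larvae of Caenorhabditis elegans. They are 8 of the 19973 protein-coding genes of the Ensembl annotation of genome WBcel235 (ce11). They were chosen by name because the larvae were at the L1 stage, in which this pathway starts to act. The rule used no measured value, but earlier results of these data were known when the choice was made. Counts of the members are therefore a description. NHR-237 belongs to the nuclear hormone receptor family of transcription factors. The labels describe strain OP228 with genotype unc-119(ed3) III; wgIs228, an integrated transgene from which NHR-237 was expressed as an eGFP fusion, and all larvae analysed carried both. Chromatin of whole L1 larvae of pooled male and female sex and unknown age was immunoprecipitated in 2 biological replicates, which form 1 group. The antibody field names the factor and the description names the fusion, and no untagged or other control sample was analysed here.

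The heterochronic pathway sets which larval stage's divisions and fates a cell carries out, above all in the hypodermal seam cells. Early regulators such as LIN-14, LIN-28 and HBL-1 hold cells in early fates, and microRNAs of the lin-4 and let-7 families lower them stage by stage until LIN-29 drives the switch to adult skin. DAF-12, bound or unbound by its steroid ligands, ties this clock to the choice between growth and the dauer stage.

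Binding is given as regions, each with a summit and the peak caller's signal value, a score of no stated scale. The pooled and replicate lists also hold weak background regions, kept as input to the replicate comparison, with 21745 regions in replicate 1 (signal values 9.38 to 216) and 25720 in replicate 2 (8.78 to 205). The pooled list held 7699 regions with values of 23.5 to 419, and the list kept after comparison of the replicates by irreproducible discovery rate (IDR) held 970, which were also the 970 strongest pooled regions, at 52.6 or more. Values were read within a list only, with rank 1 as its strongest region. The number of reads is unknown, no interval could be given, and with 1 group no test between conditions exists. Whole larvae mix all tissues, so a low value can stand for weak binding in many cells or binding in few.

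Of the 8 genes, lin-28 had an IDR peak in a promoter, taken as 1000 bp upstream to 200 bp downstream of any transcript start, where 4.66% of all protein-coding genes had one. In the pooled list lin-14, lin-28, lin-46 and daf-12 had a promoter summit, 4 of 8 against 18.4% of all genes. The deposited −log10 q-values there were 0.77 for lin-14, 2.93 and 0.83 for lin-28, 0.16 for lin-46 and 0.03 for daf-12. A larger value stands for a lower q-value, and the lowest in the IDR list was 2.16. The promoter calls of lin-14, lin-46 and daf-12 thus rest on weak regions. The calls of lin-46 and daf-12 were lost, leaving 2, without replicate 1, with a window of 500 bp upstream to 100 bp downstream, and with the stronger 50% of the list. The shares of all genes at these settings were not computed. In the replicate lists it was 5 of 8 in each replicate, with hbl-1 as the fifth in replicate 1 and lin-42 as the fifth in replicate 2, where all genes stood at 35.0% and 39.4%. Outside promoters, 1 of the 8 genes held an IDR summit in its body, lin-14, against 0.531% of all genes. In the pooled list 5 did, namely lin-14, lin-28, lin-29, lin-42 and daf-12, against 10.3% of all genes. The highest −log10 q-values of their body regions were, in that order, 2.33, 0.55, 0.22, 0.91 and 1.41.

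Long genes offer more room for a summit, and 4 members (lin-14, lin-29, lin-42 and daf-12) span at least 15 kb. Of all 404 protein-coding genes of that length, 58.9% had a pooled summit in the body outside promoters and 6.44% had an IDR summit there, where the 4 long members counted 4 and 1. Per 10 kb of gene body outside the gene's own promoter windows, the 8 members together held 9 pooled summits, or 1.01, against 0.477 over all protein-coding genes. The 4 long members held 8, or 1.08, against 0.623 in all long genes. In the replicate lists the long members held 28 summits in replicate 1 and 22 in replicate 2, or 3.79 and 2.98 per 10 kb, beside 2.03 and 2.47 in all long genes. These densities rest on few regions.

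**Figure D1:**
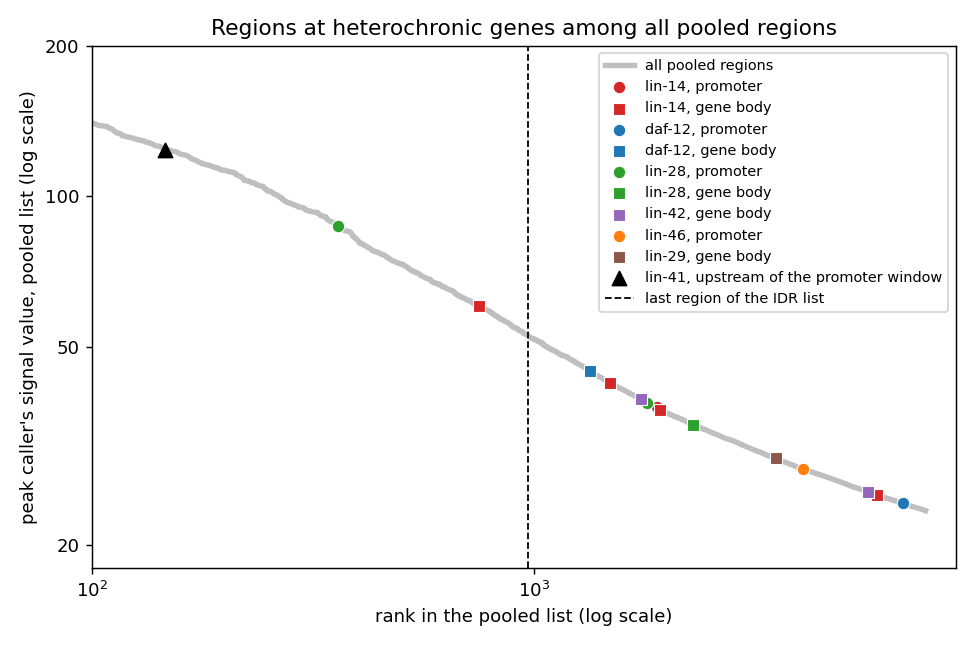
Signal value (vertical, log scale) against rank (horizontal, log scale) for pooled regions from rank 100 on, with the members' regions marked by gene; circles are promoter summits, squares are gene body summits, and the triangle is the peak upstream of lin-41 that lies outside the promoter window. Of the 14 promoter and body regions, the lin-28 peak at rank 361 and the lin-14 peak at rank 751 lie left of the dashed end of the IDR list, and the other 12 lie between ranks 1338 and 6855.

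Among them, lin-14 carried the most pooled regions of the 8 genes, 5 of 14, and its IDR peak lay inside an intron. Per 10 kb of gene span, lin-14 held 1.97 pooled summits, and the shorter lin-28 held 6.30, the most of the 8 genes. LIN-14 is the transcription factor that specifies L1 fates and the target of the lin-4 microRNA. The gene (WBGene00003003) spans chromosome X 11465560 to 11485871 on the plus strand, with transcript starts 14801 bp apart, and a large part of that distance is intron 3 of 11 of the longer transcript. The 101 bp around the summits of the 3 regions shared by both replicate lists upstream of the second start are shown because they carry the gene's promoter and its highest intronic signal. Bases here and below are from the RefSeq WBcel235 genome, 5′ to 3′ on the gene's own strand, and capitals mark matches, on either strand, to any of 6 motifs: AGGTCA, a nuclear receptor half-site, AGTTCA or else AGTGCA, half-sites of the DAF-12 type, TGATAA of the GATA type, the repeat GAGAG, or the E-box CACGTG.
lin-14 promoter, chrX:11465305-11465405, plus strand: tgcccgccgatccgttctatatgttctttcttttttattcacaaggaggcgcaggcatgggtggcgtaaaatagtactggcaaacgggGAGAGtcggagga
lin-14 intron 3, first region, chrX:11472550-11472650, plus strand: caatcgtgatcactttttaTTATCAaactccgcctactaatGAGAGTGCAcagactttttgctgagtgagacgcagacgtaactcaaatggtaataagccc
lin-14 intron 3, IDR peak, chrX:11474192-11474292, plus strand: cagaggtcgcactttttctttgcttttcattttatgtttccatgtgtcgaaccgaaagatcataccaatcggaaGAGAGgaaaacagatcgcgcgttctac

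In the run from the first intronic region, GAGAG and AGTGCA share bases in GAGAGTGCA, and TTATCA is TGATAA read from the other strand. The promoter region and the IDR peak hold GAGAG alone. A match is a run of letters, not a shown site.

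The IDR peak of lin-14 (X 11474060 to 11474423) lay 8682 bp downstream of the upstream start and 6119 bp upstream of the downstream one. Its signal value was 60.3 in the pooled list, 45.6 in replicate 1 and 17.1 in replicate 2. It ranked 751 of the 970 IDR peaks, 428 in the list of replicate 1 and 3750 in that of replicate 2, a much higher place in the first. Its summit fell in no promoter window of another gene.

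A further pair of regions lay in the same intron. The one at X 11472418 to 11472781 had signal values of 37.4 pooled, 29.2 in replicate 1 and 15.1 in replicate 2. The next, at X 11473166 to 11473529, had 25.2 pooled and 24.1 in replicate 1, with no overlapping region in replicate 2. Both summits also lay in the promoter window of the noncoding gene T25C12.6, 582 bp upstream and 166 bp downstream of its start. Their annotation therefore does not single out lin-14.

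The lin-14 promoter region (X 11465173 to 11465536) had its summit 205 bp upstream of the upstream start. Its values were 37.8 pooled, 19.5 in replicate 1 and 17.2 in replicate 2, at pooled rank 1896. The summit was also 50 bp upstream of the start of the noncoding gene T25C12.8 on the opposite strand. Towards the 3′ end, a region at X 11482726 to 11483089, in an intron of both transcripts, had 42.3 pooled, 22.95 in replicate 1 and 17.3 in replicate 2. The promoter window of the downstream start had no pooled region. Weak summits in it were listed in replicate 2 alone, 778 bp and 7 bp upstream of that start, at 12.3 and 9.66. Replicate 1 listed a weak summit outside that window, 1178 bp upstream, at 11.2.

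The gene daf-12, which encodes the nuclear hormone receptor for dafachronic acids, had its highest summit in intron 1 of 18 rather than in the promoter. The gene (WBGene00000908) spans X 10635908 to 10666875 on the plus strand and has 9 annotated starts. The intronic region, at X 10637455 to 10637818, lay 1729 bp past the most upstream start, with signal values of 44.6 pooled, 34.2 in replicate 1 and 11.6 in replicate 2. It ranked 1338 in the pooled list, 727 in replicate 1 and 13352 in replicate 2, a wide gap between the replicates. The promoter region, at X 10635223 to 10635586 with its summit 503 bp upstream, had 24.3 pooled, 15.2 in replicate 1 and 10.6 in replicate 2, at pooled rank 6855, the lowest of the 14. Outside the promoter window, 2590 bp upstream, a further pooled region had 29.1, with 12.1 in replicate 1 and 16.9 in replicate 2.

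The windows around the intronic daf-12 summit and around the stronger lin-42 summit are shown because each is its gene's highest point and both are rich in G and C, at 60.4%. The lin-42 bases are on its own strand, and CTCTC is GAGAG read from the other strand.
daf-12 intron 1, chrX:10637587-10637687, plus strand: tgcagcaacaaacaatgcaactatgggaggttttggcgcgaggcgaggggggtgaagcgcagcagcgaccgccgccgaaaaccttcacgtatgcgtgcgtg
lin-42 intron 1, chrII:1246954-1247054, minus strand: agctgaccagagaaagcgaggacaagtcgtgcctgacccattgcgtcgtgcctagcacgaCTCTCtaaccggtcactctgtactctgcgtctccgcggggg

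The gene lin-42, the worm relative of the clock protein Period and a gene whose product cycles with the molts, had no pooled summit in a promoter despite 5 annotated starts. The gene (WBGene00018572) spans chromosome II 1233236 to 1252359 on the minus strand. Its stronger region (II 1246822 to 1247185) lay in intron 1, 5355 bp past the most upstream start, with 39.2 pooled, 29.1 in replicate 1 and 14.0 in replicate 2. Small noncoding genes, F47F6.13 and F47F6.15, lie at that summit. The weaker region (II 1242369 to 1242732) had 25.6 pooled and 11.7 in replicate 1, with no overlapping region in replicate 2. Around the start at 1236969 each replicate listed its own regions: replicate 1 at 20.8, 1206 bp upstream, and at 13.7, 264 bp downstream, both outside the promoter window, and replicate 2 at 11.7, 675 bp upstream and inside it.

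The gene lin-29, whose zinc-finger transcription factor drives the larval-to-adult switch and acts late, had a single pooled region. The gene (WBGene00003015) spans II 11917642 to 11935343 on the minus strand. The region (II 11922715 to 11923078) lay in intron 4 of 10, 1459 bp upstream of the inner start, with 29.9 pooled, 15.7 in replicate 1 and 14.0 in replicate 2. Its pooled rank was 3526 of 7699, close to the middle of the list, whose median signal value was 29.0. The replicates listed 8 and 6 body regions in the gene, and those other than this one reached 13.9 at most in replicate 1 and 11.3 in replicate 2. The nearest IDR peak was 32.4 kb away, in the promoter windows of mex-1, rab-7 and W03C9.5.

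The gene lin-46, which encodes a protein related to bacterial MoeA and mammalian gephyrin and acts downstream of LIN-28, is the shortest of the 8 at 1876 bp. The gene (WBGene00003031) lies at chromosome V 12968855 to 12970730 on the plus strand. A pooled region (V 12968070 to 12968433) had its summit 603 bp upstream of the start, at 28.4 and rank 4071, and replicate 1 gave 21.3. In replicate 2 the overlapping region, at 9.02 and rank 24418, shared only 80 bp with it and had its summit 292 bp away. The same summit was 270 bp upstream of the start of R186.8, a protein-coding gene on the other strand, so the region lies between both genes and cannot be given to either from its position.

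The gene hbl-1, the hunchback-like zinc-finger regulator of L2 and L3 fates, had no promoter or body region in the IDR or pooled lists. The gene (WBGene00001824) spans X 5822142 to 5827755 on the plus strand. Replicate 1 listed a region in intron 1, 315 bp past the first start and 675 bp before the second, at 10.4 and rank 16921, and another in coding sequence at 10.6 and rank 16392. Replicate 2 listed none in either place, so no hbl-1 region was seen in both. Further out, 4500 bp upstream, a pooled region (X 5817460 to 5817823) had 41.4, with 26.7 in replicate 1 and 16.2 in replicate 2, inside the promoter windows of the noncoding genes F13D11.11, F13D11.14 and F13D11.18. No other protein-coding start lay nearer to it than that of hbl-1.

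The gene lin-28, whose RNA-binding protein blocks the maturation of let-7 and promotes early larval fates, held the highest signal inside any of the 8 genes' promoter windows. The gene (WBGene00003014) spans I 8407630 to 8410804 on the minus strand, with starts 884 bp apart. Its IDR peak (I 8409796 to 8410159) had its summit 58 bp upstream of the inner start and 826 bp past the upstream start, inside intron 1 of 2 of the longer transcript. The signal value was 87.3 pooled, 57.0 in replicate 1 and 34.4 in replicate 2, at ranks 361, 260 and 508. All lists placed it among their strong regions. By the most upstream start alone the summit would be in the gene body and no member would have an IDR promoter peak, so this call depends on the annotated inner start.

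A second lin-28 promoter region (I 8411160 to 8411523), 538 bp upstream of the upstream start, had 38.5 pooled, 23.9 in replicate 1 and 27.1 in replicate 2. It was the only one of the members' 11 regions present in both replicate lists that stood higher in the list of replicate 2. A region in the 3′ UTR (I 8407672 to 8408035) had 34.9 pooled and 25.7 in replicate 1, with no overlapping region in replicate 2. The 101 bp at the IDR peak held AGGTCA, the letters of a nuclear receptor half-site, and GAGAG. The other lin-28 windows held TGATAA in the upstream region and both AGTGCA and GAGAG in the 3′ UTR region.

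Of 924 protein-coding genes with an IDR promoter peak that could be compared over the pooled and both replicate signal values on a log2 scale, the 5 nearest to lin-28 were Y38E10A.22 and Y38E10A.24, which share a region, R04E5.9 and cnnm-2, which also share one, and smg-8. Their distances were 0.06, 0.06, 0.07, 0.07 and 0.09. Of these, smg-8 had 89.9 pooled, 57.6 in replicate 1 and 32.7 in replicate 2, close to the lin-28 values in each list. This likeness covers height alone.

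The gene lin-41, the RNA-binding TRIM-NHL protein gene repressed by let-7, had no promoter or body region in the IDR or pooled lists. Yet the strongest region near any of the 8 genes lay upstream of its promoter window. The gene (WBGene00003026) spans I 9334800 to 9342496 on the minus strand. The IDR peak (I 9343782 to 9344145) had its summit 1468 bp upstream of the most upstream start, in the 2227 bp between lin-41 and M04C9.2, and 760 bp from the 3′ end of M04C9.2. Its signal value was 124 pooled, 68.8 in replicate 1 and 57.6 in replicate 2, at ranks 146, 164 and 127, which are near each other. It lay in no annotated promoter window, and lin-41 had the nearest protein-coding start. A weak pooled neighbour, 1669 bp upstream, had 23.7.

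With the window widened to 2000 bp upstream, lin-41 joined lin-28 and 2 of the 8 genes had an IDR promoter peak, against 6.06% of all protein-coding genes. Inside the 1000 bp limit, the pooled summit farthest from its start was that of lin-46 at 603 bp. The next upstream summits, outside the limit, were those of lin-29 at 1459 bp and lin-41 at 1468 bp. Inside the gene, lin-41 had weak summits alone, at 11.1 in replicate 1 and at 9.69 and 10.3 in replicate 2.

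Both replicate lists held a region overlapping 11 of the members' 14 pooled regions, and 73.4% of all 7699 pooled regions were shared in this way. The 3 not shared were the second intronic region of lin-14, the 3′ UTR region of lin-28 and the weaker region of lin-42, all seen in replicate 1 alone. Of the 11 shared ones, 10 stood higher in the list of replicate 1, with rank given as a percent of the list's length because the lists differ in length. Over all 5650 shared pooled regions the share was 47.6%. Over those on chromosome X in gene bodies outside promoters it was 53.5%, and over those in promoters 46.7%. The members' median place was 6.94% in replicate 1 and 22.9% in replicate 2, beside 20.1% and 19.4% over all shared regions.

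Base composition also went with place in the lists. The 101 bp at the members' summits had a median GC content of 49.0% (range 32.7 to 61.4), against 35.6% over all pooled regions, and 8 of 14 lay in the upper quartile of all, from 44.6% up. Of all shared pooled regions in that quartile 54.4% stood higher in replicate 1, and in the lower quartile 40.0%. The median places in the upper quartile were 6.39% in replicate 1 and 8.88% in replicate 2, beside the members' 6.94% and 22.9%. The members' 6.94% is the place of the upstream lin-28 region, whose GC content was 32.7%. The part of GC content in the members' places was not tested.

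**Figure D2:**
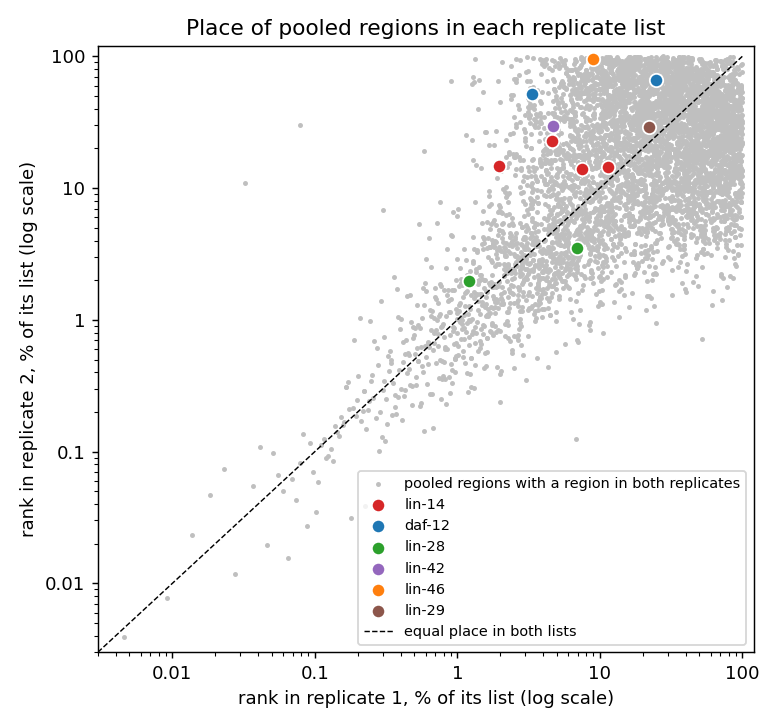
Place of each pooled region in the list of replicate 1 (horizontal) and replicate 2 (vertical), as rank in percent of that list's length, on log scales; grey points are the 5650 pooled regions with a region in both lists and coloured points the members' 11. Low values are strong regions. Of the members' points 10 lie above the dashed line of equal place, which is a higher place in replicate 1, and 1 lin-28 point lies below it.

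Each of the 6 motifs was searched on both strands within 50 bp of the summit, without setting GAGAG and AGTGCA apart where they share bases. GAGAG was found in 7 of the members' 14 regions and in 24.2% of all pooled regions. AGTGCA, a letter run of DAF-12 type half-sites, was found in 3 against 4.38%, in lin-14, lin-28 and daf-12. TGATAA, of the GATA type, was found in 2 against 8.51%, and AGGTCA in 1 against 2.66%. AGTTCA (6.35% of all) and the E-box CACGTG (2.39%) were in none of the 14, which says only that these letters are not in these windows. Any motif was found in 9 of 14 against 41.8%.

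Other genes of the pathway, a list of 32, were read in the same way. Their promoters held an IDR peak in 7 of the 26 that encode proteins, which is 26.9% beside the 4.66% of all genes. They held a pooled summit in 14, or 53.8%, beside 18.4%. Of the pooled calls without an IDR peak, those of alg-1, myrf-2 and nhr-23 had signal values of 42.7, 47.9 and 39.8. Those of lep-2, lin-66, pan-1 and nhr-25 were weak, at 25.1, 25.8, 25.9 and 24.5, where the list's lowest was 23.5. No replicate 2 region overlapped those of lep-2 and nhr-25. By role, an IDR promoter peak was found at 3 of 7 genes of the microRNA machinery and its cofactors. It was found at 3 of 15 regulators and partners, a count that includes lep-5, which encodes no protein. In the steroid branch of DAF-12 it was 1 of 3 genes, and downstream of LIN-41 neither of 2, mab-3 and dmd-3. The list was drawn up with earlier results of these data known, and the shares are a description.

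The strongest was puf-9, a Pumilio-family RNA-binding protein gene, with its summit 299 bp upstream of a start. Its signal value was 273 pooled, 169 in replicate 1 and 109 in replicate 2, at pooled rank 16. This peak is also the IDR peak nearest to hbl-1, 18.2 kb from its nearest start. The gene nhl-2, which encodes a cofactor of the microRNA complex, had 191 pooled, 108 in replicate 1 and 83.8 in replicate 2, in a region shared with the promoter of tag-340. The gene ain-1, a GW182-family gene, had 52.9 pooled, 23.9 in replicate 1 and 52.0 in replicate 2, near the foot of the IDR list at rank 958.

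The gene hrpk-1, which encodes an RNA-binding protein of the hnRNP K family, had 55.9 pooled, 34.6 in replicate 1 and 20.6 in replicate 2. The gene myrf-1, a membrane-bound transcription factor gene, had 75.2, 51.4 and 26.2 in the same order. The gene kin-20, the casein kinase related to Doubletime that works with LIN-42, had 67.3, 39.2 and 30.9, with 2 more IDR peaks in its intron 1 at 57.5 and 70.1. The highest pooled value at lin-42 itself was 39.2. The gene din-1, the corepressor of DAF-12, had 68.9 pooled, 29.1 in replicate 1 and 35.6 in replicate 2, while the promoter of daf-12 reached 24.3 pooled and those of daf-9 and daf-36, genes of dafachronic acid synthesis, had no pooled summit.

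None of the microRNA genes lin-4, let-7, mir-48, mir-84 and mir-241 had a pooled summit in the promoter window. That window was set from each gene's annotated start, and no other possible start was examined, so the absence covers this window only. The share over all microRNA genes was not computed, and that over all protein-coding genes was 18.4%. The IDR peak nearest to any of these microRNA genes was at let-7, the microRNA that represses lin-41. It lay at X 14747018 to 14747381, 1879 bp upstream of the annotated start. It had 67.0 pooled, 29.8 in replicate 1 and 44.4 in replicate 2, at pooled rank 599. It also lay 103 bp upstream of the start of the protein-coding gene C05G5.2, so its position does not assign it to let-7. For lin-4, mir-48, mir-241 and mir-84 the nearest IDR peaks were 5.59, 8.55, 10.3 and 34.1 kb away. The bases at the let-7 summit are shown, on the strand of let-7, because this region and that of lin-41 are both outside the promoter window of a gene of the pathway.
let-7 upstream region, chrX:14747150-14747250, minus strand: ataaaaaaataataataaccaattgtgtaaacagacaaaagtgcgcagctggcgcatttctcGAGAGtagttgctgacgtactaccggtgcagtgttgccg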

How the data were processed

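The deposited files were narrowPeak lists, and the 4 on ce11 were analysed (IDR, pooled and 2 replicates); the lists on ce10 were not used. According to their deposited readme files, an alignment of the replicate and one of a control gave each replicate list, both replicates together with the control gave the pooled one, and these lists gave the IDR one. Aligner, peak caller and versions: not given in the sources used here. Signal, as the authors gave it, is a score of no stated scale, and the q-value column holds deposited −log10 q-values. Read depth is unknown.

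A summit was the region start plus the offset column, written 1-based. With Python 3.11.15, pandas 2.3.3 and numpy 2.4.6, summits were assigned to genes of Ensembl release 115 (WBcel235). A promoter ran from 1000 bp upstream to 200 bp downstream of any transcript start, and a gene body excluded promoters. Regions of different lists were matched by an overlap of at least 1 bp, and the match with the longest overlap gave the value. The assignment was tested on simulated data. Sequences were read from the RefSeq WBcel235 genome, and motifs searched within 50 bp of summits. The text names all 8 genes with all their IDR and pooled regions, genes sharing those regions and the 5 genes most like lin-28. Pathway genes with an IDR or pooled promoter summit are named too. Regions outside the windows, those found in a single replicate only, and microRNA neighbours were named after their values were seen. Members and lists were chosen with earlier results of these data known. Alternatives changed the window, the starts, the overlap, the length of the list and the replicates used.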

Additional observations from a re-analysis of the deposited data

How the results depend on the processing

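The count of genes with an IDR promoter summit was 1 (lin-28) and became 2 with 2000 bp upstream, which added lin-41, and 0 with the most upstream start only, because the lin-28 summit then falls in the gene body. It was 1 with 500 bp upstream to 100 bp downstream, with any overlap of the region, with the stronger part of the list, and without either replicate (range 1 to 1), where the 970 strongest regions of the other replicate were used. The pooled count was 4 and became 2 (lin-14 and lin-28) with 500 bp upstream to 100 bp downstream and 2 with the stronger 50% of the list. Leaving out a replicate, with the 7699 strongest regions of the other, gave a range of 2 to 4: 2 (lin-14 and lin-28) without replicate 1 and 4 without replicate 2, so the calls of lin-46 and daf-12 are lost without replicate 1. With 2000 bp upstream it was 6, adding lin-41 and lin-29, the latter by an intronic summit 1459 bp upstream of its inner start. Apart from 6.06% for the IDR list with 2000 bp upstream, the shares of all protein-coding genes at these other settings of either list were not computed. Body counts did not move with any overlap of the region. Regions shared by both replicates numbered 11 of 14, or 10 when the pooled summit had to fall in the replicate's region or 50% of the region had to overlap. Of all pooled regions 73.4% were shared, and 68.1% under either stricter rule. Comparison with genes of at least 15 kb and motifs within 100 bp (13 of 14 against 62.4% of all, from 9) were chosen after seeing the data. No paired analysis was possible because there is 1 group. Unknown read depth limits every absence to the list's own lowest signal value.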
